A study of Macaca mulatta with 30 samples.

Results

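SOX, FOX, GATA, KLF, RUNX, EGR, ETS, ETV and IKZF genes encode sequence-specific transcription factors, and 82 of them were measured in 5 rhesus macaque RNAs. The members were the genes whose symbol in the array's annotation was one of these family names followed by its number, read from probe sets with a single gene symbol. There were 180 such probe sets, out of 24969 with 1 symbol and 52865 on the array, and each gene was represented by the probe set with its highest mean over all arrays. This left 82 of the 14133 genes that had a symbol of their own: 15 SOX, 30 FOX, 5 GATA, 15 KLF, 3 RUNX, 2 EGR, 2 ETS, 6 ETV and 4 IKZF genes. Members of these families without such a probe set, for example EGR1, EGR3, FOXO3, KLF9, ETV5 and GATA5, were not analysed here. RNA came from cerebral cortex, pancreas, testis and thymus and from an immortalized fibroblast cell line, and 2 aliquots of each RNA were labeled and hybridized to the rhesus GeneChip at each of 3 centers (Oregon, Nebraska and Yerkes). This gave 30 arrays, 6 per tissue. The paper reports lower data quality for the pancreas arrays than for the others, from their scaling factors and standard errors. It advises caution with them, which applies to every comparison with pancreas below. The methods give Oregon as the source of the pancreas, testis and thymus RNA, Yerkes as that of the cortex RNA and Nebraska as that of the fibroblast RNA, so that in every comparison with cortex or fibroblast tissue and place of extraction cannot be told apart, and pancreas, testis and thymus shared a source. Animals, ages, sexes and treatments were not given in the sources used here. Since the arrays of a tissue are aliquots of 1 RNA, every p-value below measures the spread of labeling and hybridization and not the spread between animals.

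The families differ in how they hold DNA and in what they are known for. SOX proteins bend DNA with an HMG box and mark progenitors of the nervous system, the gonad and other organs. FOX proteins carry a forkhead domain, and the FOXA group among them opens closed chromatin in tissues of the gut tube. GATA, KLF, EGR and IKZF proteins all use zinc fingers: GATA factors are known from blood and from heart and gut endoderm, KLF factors from epithelium and blood vessels, EGR factors as early targets of growth factors and neuronal activity, and IKZF factors from lymphocytes. RUNX proteins bind DNA together with the partner CBFB, and ETS and ETV proteins share the ETS domain, through which many signals of the RAS pathway reach DNA.

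Values are log2 signals, so that a difference of 1 is a 2-fold change. Array means were 6.317 to 6.333 at Oregon, 6.349 to 6.385 at Nebraska and 6.898 to 6.927 at Yerkes, and the limma model held a term for the center besides the tissue. A tissue was called the higher one for a gene when its mean lay above that of all 4 others. The largest p-value of these 4 limma contrasts, Benjamini-Hochberg adjusted over all probe sets, also had to be under 0.05. Differences are given as the highest tissue minus the next, with their standard error (SE). Of the 82 genes, 59 (72.0%) were higher in 1 tissue by this rule, near the 65.9% of all genes with a symbol. A difference of at least 1 was reached by 22 genes (26.8%, against 17.5% of all genes), 7 in thymus, 6 in testis, 4 each in pancreas and fibroblast and 1 in cortex. The range from the highest to the lowest tissue mean had a median of 1.33 over the 82 genes and 1.20 over all genes, and it was at least 2 for 27 of them (32.9%, background 24.8%). Among families of more than 2 genes the GATA genes had the widest median range, 2.53 over 5 genes, and the ETV genes the narrowest, 0.77 over 6 genes. Several marker lists stood with their labels, each by at least 1. These were all 5 neuronal genes measured in cortex, 5 thymocyte genes in thymus and 5 acinar genes in pancreas. The 3 Sertoli and 3 Leydig cell genes did so in testis and 5 of 7 fibroblast genes in fibroblast. Other lists were mixed. Of 4 pancreatic duct genes, CFTR was higher in pancreas, KRT7 and KRT19 were higher in thymus (1.79 and 0.61), and SPP1 was not called. Of 4 islet genes, GCG and G6PC2 were higher in pancreas, PCSK2 was higher in cortex (0.65), and PAX6 was not called. The oligodendrocyte gene MBP was higher in cortex and CNP was not called.

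**Figure D1:**
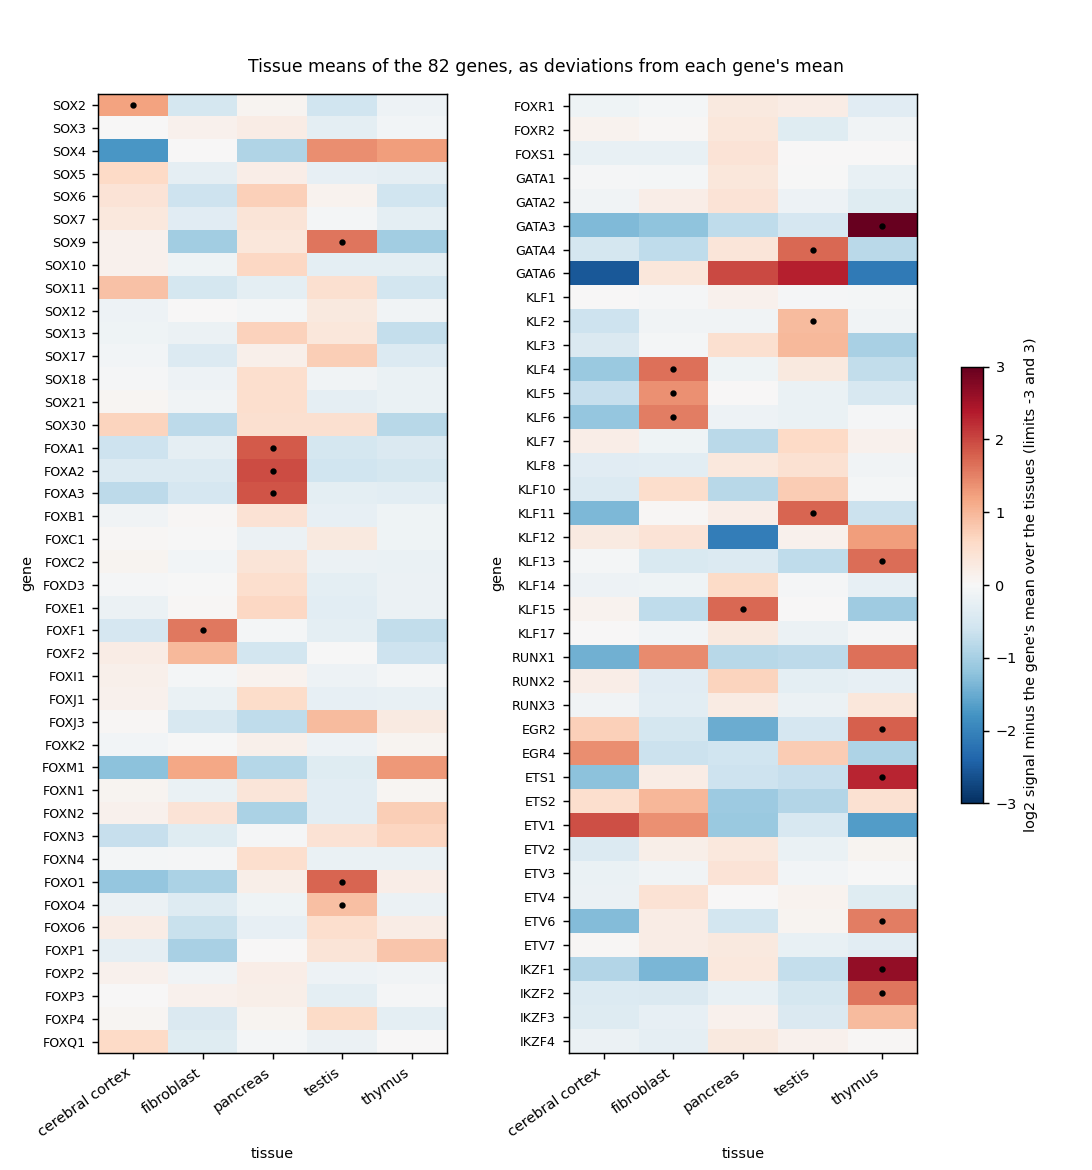
Heat map of the 82 genes (rows, by family) in 5 tissues (columns). Color is the tissue mean of 6 arrays minus the gene's mean over the tissues, in log2 units, and a black dot marks the 22 genes higher in that tissue than in every other by at least 1; 7 of the dots lie in thymus and 1 in cortex.

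The largest difference of the 82 genes was that of GATA3 in thymus. GATA3, which commits progenitors to the T cell lineage, was at 10.21 on its lowest, 10.44 on its median and 10.79 on its highest thymus array. Testis was next at 5.94, 6.18 and 6.46, and no array of another tissue came near a thymus array. The difference was 4.29 (SE 0.13, adjusted p = 5.86e-23), a 19.6-fold signal. IKZF1, which encodes Ikaros, was at 11.29, 11.88 and 12.01 in thymus (lowest, median and highest array) and at 9.04, 9.19 and 10.03 in pancreas. All thymus arrays lay above all others, and the difference was 2.32 (SE 0.10, adjusted p = 8.62e-19). Helios, encoded by IKZF2 and best known from T cells, stood at 7.14, 7.73 and 7.99 in thymus and at 5.15, 5.60 and 6.50 in pancreas, a difference of 1.82 (SE 0.10, adjusted p = 1.47e-15). IKZF3, which encodes Aiolos, was also higher in thymus but by 0.81 (SE 0.10, adjusted p = 6.51e-08), and IKZF4, which encodes Eos, was not higher in any tissue (means from 7.37 in pancreas down to 6.80 in fibroblast). Of the 82 genes, 11 (13.4%) were higher in thymus, near the 11.3% of all genes, and 7 (8.54%) by at least 1, where 3.33% of all genes were. Bulk RNA was measured, so that fewer cells of a type and less RNA per cell cannot be told apart.

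The other 4 of these 7 genes in thymus came from 4 families. ETS1, an ETS factor of lymphocytes, was at 9.12, 9.19 and 9.73 in thymus and at 6.95, 7.23 and 7.64 in fibroblast. No array of another tissue reached a thymus array, and the difference was 2.06 (SE 0.07, adjusted p = 2.33e-22). KLF13, known in human T cells as an activator of the chemokine gene CCL5, was at 11.17, 11.44 and 11.70 in thymus and at 9.42, 9.78 and 9.97 in cortex, a difference of 1.72 (SE 0.05, adjusted p = 1.6e-23). It was the member with the smallest SE among the 22. ETV6, a repressor needed for blood formation in mouse bone marrow, was at 10.04, 10.32 and 10.36 in thymus and at 8.45, 9.07 and 9.30 in fibroblast, and the difference was 1.32 (SE 0.09, adjusted p = 1.08e-13). EGR2, induced by T cell receptor signaling and also known from myelination, was at 8.30, 8.42 and 8.56 in thymus and at 7.20, 7.35 and 7.51 in cortex, a difference of 1.08 (SE 0.12, adjusted p = 5.97e-09). Smaller differences passed for KLF12 (0.84, SE 0.09), the lymphocyte factor FOXP1 (0.45, SE 0.07) and FOXN2 (0.31, SE 0.09, adjusted p = 0.02). FOXP1 did not pass after quantile normalization of all 30 arrays together (0.11, adjusted p = 0.595). FOXN2 did not pass with arrays centered on their medians, with averaged aliquots, or without Oregon or Nebraska (adjusted p = 0.11 to 0.165).

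Not every factor named for the thymus was higher there. FOXN1, the defining factor of thymic epithelium, was at 6.43, 6.67 and 7.55 in thymus and at 6.90, 7.02 and 7.71 in pancreas, and thymus lay 0.30 below pancreas (SE 0.08, adjusted p = 0.00063). Its call in pancreas did not pass with arrays centered on their medians (0.15, adjusted p = 0.244) or without Oregon (0.17, adjusted p = 0.341). The difference between thymus and pancreas was not followed under these alternatives. Of 4 other thymic epithelial genes measured, PAX1, PSMB11 and AIRE were higher in thymus by 2.56 (SE 0.11), 1.55 (SE 0.06) and 0.19 (SE 0.06). The last of them, CCL25, was higher in fibroblast than in thymus, the next tissue, by 0.98 (SE 0.07). FOXP3, the factor of regulatory T cells, stayed below the array median on all 30 arrays, with tissue means from 6.05 in pancreas down to 5.59 in testis. RUNX3, which acts in the CD8 lineage, was at 6.19 ± 0.30 (SD, n = 6 arrays) in thymus and 6.10 ± 0.46 in pancreas. Thymus was not called higher than every other tissue (0.10, SE 0.09, adjusted p = 1).

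**Figure D2:**
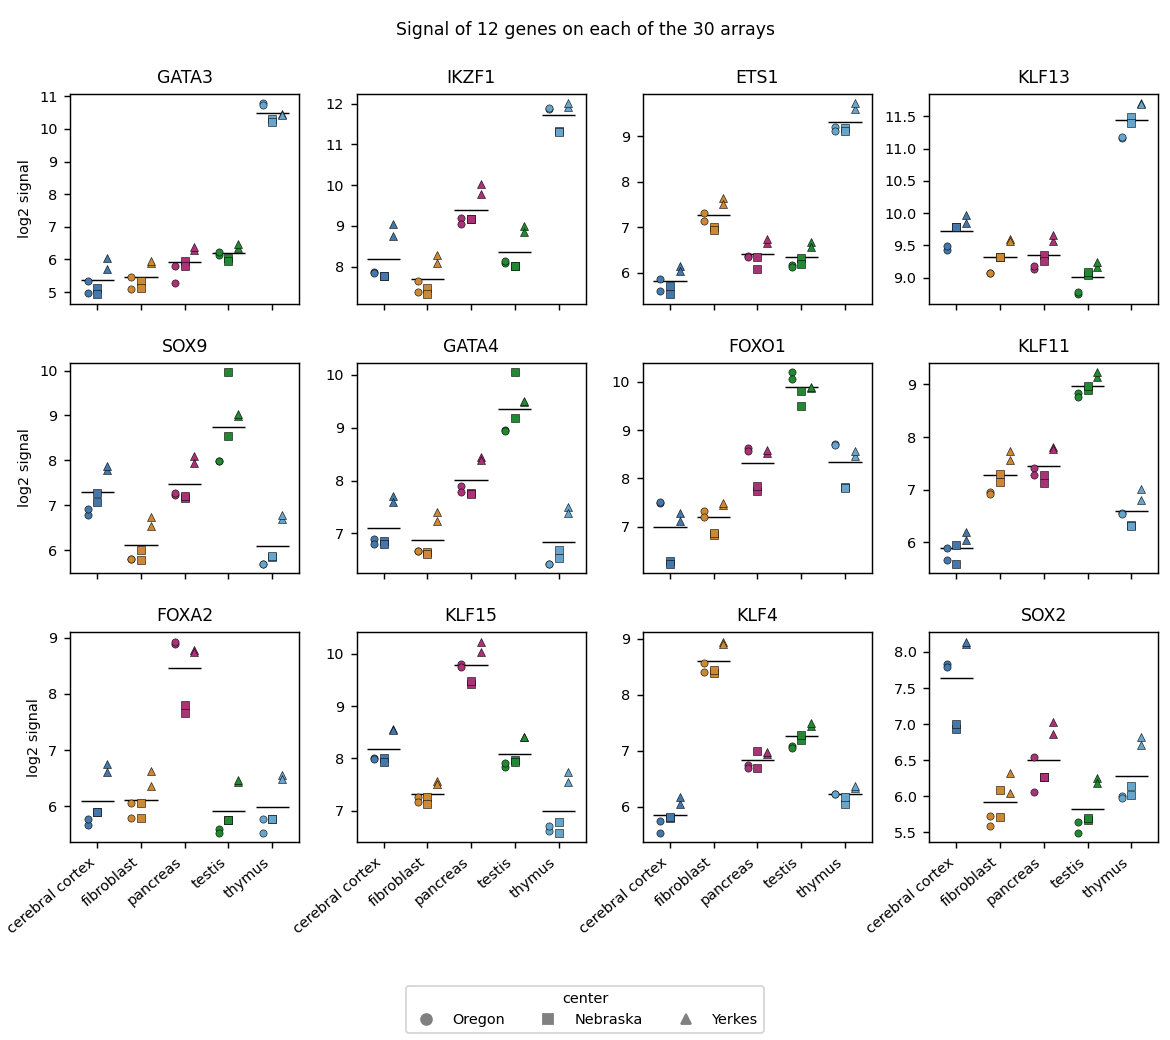
Log2 signal (y axis) of 12 genes in 5 tissues (x axis), 1 point per array with the symbol giving the center and a bar at the mean of 6 arrays. The 6 thymus points of GATA3 lie between 10.21 and 10.79, and in the SOX9 and GATA4 panels 1 Nebraska testis point lies far above the others.

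In pancreas, all 3 FOXA genes were higher than in every other tissue by more than 2. FOXA proteins are pioneer factors of liver, pancreas and other organs of the gut tube. FOXA2 was at 7.66 on its lowest, 8.76 on its median and 8.93 on its highest pancreas array, and at 5.79, 6.06 and 6.62 in fibroblast. The difference was 2.35 (SE 0.14, adjusted p = 1.59e-14), a 5.11-fold signal. FOXA3 was at 8.03, 8.17 and 8.90 in pancreas and at 5.77, 6.10 and 6.68 in testis, a difference of 2.17 (SE 0.06, adjusted p = 1.06e-23). FOXA1 was at 7.39, 7.48 and 7.87 in pancreas and at 5.13, 5.29 and 5.95 in fibroblast, a difference of 2.11 (SE 0.07, adjusted p = 4.63e-21). For each of the 3 genes the pancreas arrays did not overlap those of another tissue, and for FOXA1 and FOXA2 the other tissues were not separated from their neighbors in the order of means. The fourth gene was KLF15, a regulator of glucose and amino acid metabolism. It was at 9.41, 9.78 and 10.23 in pancreas and at 7.93, 8.01 and 8.57 in cortex, a difference of 1.61 (SE 0.08, adjusted p = 2.79e-16). These 4 genes are 4.88% of the 82, where 1.98% of all genes were higher in pancreas by at least 1.

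The other 18 genes called in pancreas differed from the next tissue by 0.27 to 0.61 (median 0.43). They came from 6 families, among them the erythroid factor GATA1 (0.37, SE 0.08), the cilium factor FOXJ1 (0.43, SE 0.06), the thyroid factor FOXE1 (0.60, SE 0.07), the endothelial factor SOX18 (0.55, SE 0.07) and the neural crest factor FOXD3 (0.51, SE 0.08). With them, 22 of the 82 genes (26.8%) were higher in pancreas, and 19.1% of all genes were. FOXD3 lay below the array median on all 30 arrays, and 11 of the 18 did so on at least 1 array. The median signal of the pancreas arrays stood 0.10 to 0.15 above the mean of their center, and no other tissue reached this (-0.13 to 0.05). The part of this shift in the small differences was not tested beyond 2 other scalings. The part of the lower quality of the pancreas arrays was not tested. After centering each array on its median 5 of these 18 genes no longer passed (FOXC2, FOXN1, GATA1, KLF17 and SOX6). After quantile normalization of all 30 arrays together 24 genes were called in pancreas, and 20 of these were among the 22. GATA1 was beside 4 of 4 red blood cell genes that were higher in pancreas, by 0.43 for ALAS2 up to 1.14 for HBA. The sperm genes PRM1, ACR and ODF1 were also higher in pancreas, by 0.42, 0.40 and 0.62. The part of blood in the result was not tested.

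KLF12, a repressor of the AP-2 alpha gene, was the gene of the 82 that was lower in 1 tissue than in every other by at least 1 (1.22%, background 5.02%). It was at 6.33, 6.77 and 7.31 in pancreas and at 8.84, 8.92 and 9.47 in testis, the next lowest tissue. No pancreas array reached another tissue, and pancreas minus testis was -2.21 (SE 0.09, adjusted p = 5.02e-19). Without a minimum, EGR2, ETS2, FOXJ3, FOXN2, KLF7 and KLF10 were also lower in pancreas than in every other tissue, by 0.21 for ETS2 up to 0.98 for EGR2. With KLF12 these were 7 of the 82 genes (8.54%), against 12.9% of all genes.

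In testis, the 6 genes higher by at least 1 (7.32%, background 1.97%) included 2 factors of the gonad, SOX9 and GATA4. SOX9, which drives Sertoli cell formation, was at 7.98, 8.77 and 9.96 in testis and at 7.16, 7.26 and 8.10 in pancreas. At each center both testis arrays lay above all others, but over the centers together testis and pancreas overlapped. The difference was 1.26 (SE 0.17, adjusted p = 8.46e-07). GATA4, which acts in Sertoli and Leydig cells, was at 8.94, 9.34 and 10.05 in testis and at 7.75, 7.84 and 8.44 in pancreas, with no overlap. Here the difference was 1.35 (SE 0.12, adjusted p = 2.55e-10). KLF2, known from endothelium under flow, was at 7.82, 8.38 and 8.89 in testis and at 6.96, 7.23 and 7.71 in thymus, also without overlap, and the difference was 1.04 (SE 0.10, adjusted p = 5.36e-10).

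These 3 genes shared 1 array with a raised signal. The first Nebraska aliquot of testis gave 9.96 for SOX9, 10.05 for GATA4 and 8.89 for KLF2, and the second Nebraska aliquot of the same RNA gave 8.55, 9.19 and 8.27. FOXP4, called in testis by a difference under 1, was also raised, at 9.31 on the first aliquot and 8.37 on the second. On this array 188 of all 52865 probe sets were at least 1 above the other aliquot and 19 at least 1 below it, where the 14 other pairs of aliquots had 4 to 47 above and 8 to 57 below. The Sertoli genes AMH, INHA and WT1 moved with it, at 13.09, 11.74 and 9.61 on the first aliquot and 12.28, 10.84 and 8.83 on the second, while the Leydig genes STAR, CYP17A1 and HSD3B2 were at 7.93, 9.30 and 7.63 on the first and 8.03, 9.61 and 8.02 on the second. Their part in the result was not tested. Without this array the differences were 0.99 for SOX9 (adjusted p = 1.42e-11), 1.17 for GATA4 (adjusted p = 1.75e-13), 0.90 for KLF2 (adjusted p = 5.59e-12) and 0.99 for FOXO4 (adjusted p = 4.3e-13), so that 3 in place of 6 genes reached a difference of 1.

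The forkhead factors FOXO1 and FOXO4, which insulin signaling keeps out of the nucleus, were both higher in testis. FOXO1, known from undifferentiated spermatogonia of mouse, was at 9.50, 9.88 and 10.19 in testis and at 7.79, 8.52 and 8.71 in thymus, a difference of 1.54 (SE 0.10, adjusted p = 3.93e-14). FOXO4 was at 7.82, 8.16 and 8.45 in testis and at 6.78, 6.99 and 7.63 in pancreas, a difference of 1.03 (SE 0.07, adjusted p = 6.38e-14). No testis array of these genes was reached by another tissue, and FOXO6 was also higher in testis but by 0.28 (SE 0.06, adjusted p = 0.00289). FOXO6 did not pass after quantile normalization of all 30 arrays together (0.19, adjusted p = 0.133), without the Nebraska arrays (0.21, adjusted p = 0.248), or with the 2 aliquots of a center averaged (adjusted p = 0.0772). KLF11, a target of TGF-beta signaling, was at 8.76, 8.93 and 9.23 in testis and at 7.13, 7.34 and 7.80 in pancreas, and the difference was 1.53 (SE 0.08, adjusted p = 2.4e-16). Another 6 genes passed in testis with differences from 0.28 for SOX12 to 0.70 for FOXJ3, and among them SOX17, KLF3, KLF7 and FOXP4 stood at 0.59, 0.49, 0.40 and 0.51. Without the first Nebraska aliquot KLF7 (0.35, adjusted p = 0.0651) and SOX12 (0.24, adjusted p = 0.108) no longer passed. After quantile normalization of all 30 arrays together, FOXP4 and KLF3 were no longer highest in testis (-0.02 for both). In the main fit 13 of the 82 genes (15.9%) were higher in testis, against 8.19% of all genes.

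The fibroblast line had 3 KLF genes and 1 FOX gene among its 4 largest members (4.88%, background 4.63%). KLF6, an early response factor also known as a tumor suppressor, was at 9.58, 10.17 and 10.39 in fibroblast and at 8.19, 8.57 and 8.71 in thymus. The groups did not overlap, and the difference was 1.56 (SE 0.08, adjusted p = 6.05e-17). KLF4, one of the factors used to reprogram fibroblasts to stem cells, was at 8.39, 8.51 and 8.94 in fibroblast and at 7.05, 7.24 and 7.48 in testis, a difference of 1.35 (SE 0.07, adjusted p = 6.62e-17). KLF5, which promotes growth of epithelium and smooth muscle, was at 7.76, 8.66 and 8.88 in fibroblast and at 6.55, 7.23 and 7.48 in pancreas, a difference of 1.37 (SE 0.09, adjusted p = 7.53e-14). FOXF1, a factor of lung and gut mesenchyme, was at 6.74, 7.59 and 7.73 in fibroblast and at 5.35, 5.72 and 6.06 in pancreas. Its difference was 1.65 (SE 0.10, adjusted p = 7.02e-15), and FOXF1 passed the array median on the 6 fibroblast arrays and on no other. FOXF2, its nearest relative, followed with 0.75 (SE 0.09), ETS2, a target of RAS signaling, with 0.49 (SE 0.07) and ETV4, of the PEA3 group, with 0.32 (SE 0.07, adjusted p = 0.00219). ETV4 did not pass with averaged aliquots (adjusted p = 0.128) or with the mean of its probe sets (0.17, adjusted p = 0.13). In all, 7 of the 82 genes (8.54%) were higher in fibroblast, against 15% of all genes.

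Cerebral cortex had 1 gene with a difference of at least 1 (1.22%, background 5.63%). SOX2, a factor of neural progenitors, was at 6.93, 7.81 and 8.14 in cortex and at 6.05, 6.40 and 7.03 in pancreas. At each center the cortex arrays lay above all others, although the Nebraska cortex arrays (6.93 and 7.01) overlapped the Yerkes pancreas arrays. The difference was 1.13 (SE 0.12, adjusted p = 2.69e-09), and without the Oregon arrays it was 0.95. The other 5 genes higher in cortex were EGR4, an activity-induced gene (0.65, SE 0.07), FOXQ1, a forkhead gene (0.58, SE 0.07), ETV1, known from layer 5 neurons (0.57, SE 0.10), SOX5, known from deep layer neurons of mouse (0.40, SE 0.08), and SOX11, a factor of neuronal differentiation (0.40, SE 0.09). SOX11 did not pass without the Nebraska arrays (0.25, adjusted p = 0.224). In all, 6 of the 82 genes (7.32%) were higher in cortex, against 12.2% of all genes. Without the pancreas arrays 14 genes were higher in cortex than in each of the other 3 tissues. The share of all genes was not computed for that setting.

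Cortex was more often the lowest tissue. Of the 82 genes, 12 (14.6%) were lower in cortex than in every other tissue, against 9.47% of all genes, and each by less than 1. They were ETS1, ETV6, FOXA3, FOXM1, FOXN3, GATA6, KLF2, KLF4, KLF6, KLF11, RUNX1 and SOX4. KLF6 had the widest of these differences, cortex (6.79, 7.49 and 7.92) lying 0.96 below testis (SE 0.08, adjusted p = 4.35e-11). SOX4, a SOXC factor of lymphocyte and neuronal development, was 0.86 lower in cortex than in pancreas (SE 0.10, adjusted p = 4.41e-08). SOX11 of the same SOXC group was higher in cortex in the main fit, though not without the Nebraska arrays. ETV6 and KLF11 were lower in cortex by 0.74 (SE 0.09) and 0.71 (SE 0.08).

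**Figure D3:**
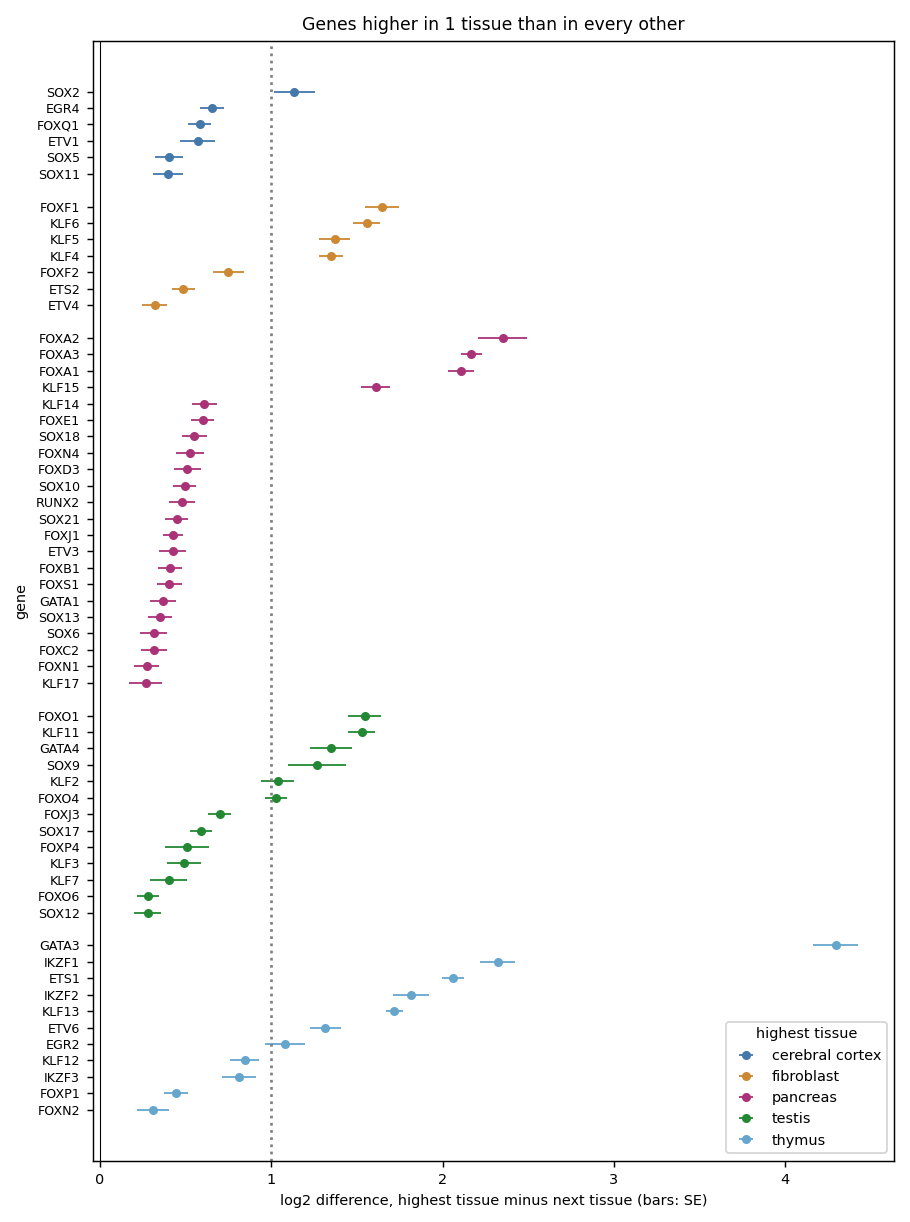
Log2 difference between the highest tissue and the next (x axis, bars are the SE of the limma contrast) for the 59 genes called in 1 tissue (y axis, by tissue), with a dotted line at 1. GATA3 stands at 4.29 and the 18 smaller pancreas differences lie between 0.27 and 0.61.

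Several genes were high in 2 tissues at once. A gap of at least 1 below 2 tissues was found for 6 genes (7.32%, background 4.44%). RUNX1, needed for blood stem cells and T cell development, was at 8.63, 8.88 and 8.94 in thymus and at 8.36, 8.45 and 8.93 in fibroblast. Thymus was 0.23 above fibroblast (SE 0.08) and was not called higher than every other tissue (adjusted p = 0.0606). Fibroblast exceeded testis, the next tissue, by 2.22 (SE 0.08, adjusted p = 1.37e-21). FOXM1, an activator of mitotic genes, was at 8.15 ± 0.23 (SD, n = 6 arrays) in thymus and 8.0002 ± 0.37 in fibroblast. Again thymus was not called higher than every other tissue, and fibroblast exceeded testis by 1.504 (SE 0.10, adjusted p = 5.77e-15). The proliferation genes MKI67, TOP2A, CDK1, AURKB and CCNB1 stood beside it in the same order, with thymus first and fibroblast next, and their thymus minus fibroblast differences were 0.67 for CCNB1 to 2.03 for MKI67.

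SOX4 was at 11.05 ± 0.30 in testis and 10.91 ± 0.45 in thymus, 1.24 or more above fibroblast (SE 0.10, adjusted p = 6.71e-13 for thymus minus fibroblast). ETV1 was at 9.20 ± 0.41 in cortex and 8.63 ± 0.34 in fibroblast, and fibroblast exceeded testis by 1.85 (SE 0.10, adjusted p = 1.17e-16). EGR4 stood at 8.004 ± 0.31 in cortex and 7.35 ± 0.25 in testis, both above 6.01 ± 0.31 in pancreas. EGR2 followed thymus with cortex, which exceeded testis by 1.22 (SE 0.12, adjusted p = 7.04e-11). So the probe sets used for the 2 EGR genes shared a raised signal in cortex and differed in the second tissue. The second set of EGR2 did not show this, with 6.53 in cortex, 6.60 in thymus and 6.73 in pancreas.

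Below 3 tissues, a gap of at least 1 was found for GATA6, ETS2 and SOX30 (3.66%, background 3.06%). GATA6, a factor of endoderm, heart and gonad, was at 8.72, 8.81 and 8.89 in testis, 8.08, 8.54 and 8.65 in pancreas, 6.19, 6.92 and 7.26 in fibroblast, 3.86, 4.38 and 4.68 in thymus and 3.42, 3.93 and 4.43 in cortex. Its range of 4.87 was the second largest of the 82 genes after that of GATA3 (5.13). Testis arrays lay above all pancreas arrays, by 0.36 between the means (SE 0.12), but testis was not called higher than every other tissue (adjusted p = 0.0963). Fibroblast exceeded thymus by 2.48 (SE 0.12, adjusted p = 4.43e-18). GATA4, its closest relative here, also had testis first and pancreas next, but 2.53 from highest to lowest. ETS2 was between 9.41 and 9.93 in fibroblast, cortex and thymus and at 8.07 and 7.86 in testis and pancreas. SOX30, a factor of spermatid formation in mouse, was at 9.15 ± 0.12 in cortex, 8.96 ± 0.33 in pancreas and 8.95 ± 0.45 in testis, and testis exceeded fibroblast by 1.26 (SE 0.16). Of 5 germ cell genes measured, DAZL and ZPBP were higher in testis, by 2.82 (SE 0.10) and 2.16 (SE 0.09). The sperm genes PRM1, ACR and ODF1 were not, with testis means of 6.35, 5.69 and 6.27, and were higher in pancreas.

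Altogether 23 genes were higher in no tissue than in every other. Of these, 16 had a range of tissue means under 1, and KLF1, the erythroid factor, had the smallest of all 82 (0.19, between 6.18 in pancreas and 5.99 in thymus). The other 7 were FOXM1, FOXN3, GATA6, KLF10, RUNX1, SOX4 and SOX30. KLF10, an early target of TGF-beta signaling, was at 9.28 ± 0.12 in testis and 9.06 ± 0.19 in fibroblast (0.22, SE 0.07, adjusted p = 0.081). FOXN3, a forkhead repressor, was at 8.69 ± 0.22 in thymus and 8.48 ± 0.21 in testis. On all 30 arrays, 35 genes lay above the array median (42.7%, background 47.5%), and 6 lay above it on none (7.32%, background 10.2%): FOXD3, FOXP3, FOXR1, FOXR2, KLF1 and SOX7. Their ranges of tissue means were 0.19 for KLF1 to 0.80 for FOXD3.

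Close relatives were compared next. Of the SOXF group, which acts in endothelium, SOX17 was higher in testis (0.59, SE 0.07), SOX18 in pancreas (0.55, SE 0.07), and SOX7 was below the array median throughout. Endothelial genes were likewise split, with PECAM1 higher in thymus by 1.43, CDH5 and TEK in pancreas by 0.76 and 0.72, and CLDN5 in cortex by 0.84. Of the SOXD group, SOX5 was higher in cortex, SOX6, which acts in cartilage and muscle, and SOX13 in pancreas by 0.31 (SE 0.08) and 0.35 (SE 0.07). With the mean of all probe sets of a gene, SOX17 (0.13, adjusted p = 0.557) and SOX6 (0.03) no longer passed. SOX6 also did not pass without the Yerkes arrays (0.25, adjusted p = 0.0683). By contrast, all 3 FOXA genes passed in pancreas, all 3 FOXO genes in testis (FOXO6 not under each alternative, as given above), and IKZF1, IKZF2 and IKZF3 in thymus.

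Partners of these factors and other genes of their classes were read from lists. CBFB, the partner of RUNX proteins, was higher in thymus by 0.85 (SE 0.06, adjusted p = 1.45e-13), and the corepressor gene TLE3 by 0.78 (SE 0.07). Of the 10 partner and corepressor genes measured out of 16 listed, 7 were higher in 1 tissue and none by at least 1. The share of all genes higher in 1 tissue was 65.9%, and it is the background of these list counts. Of 15 other ETS domain genes, 12 were higher in 1 tissue, 5 in thymus, 5 in pancreas and 2 in fibroblast. FLI1 and ELF1, both of blood cells, exceeded the next tissue in thymus by 2.38 (SE 0.09) and 2.29 (SE 0.08), beside ETS1 and ETV6, and EHF, an epithelial ETS factor, did so in pancreas by 3.64 (SE 0.09). Of 12 other immediate early genes 9 were higher in 1 tissue: FOS, FOSL2, JUNB and NR4A1 in fibroblast, by 0.56 to 1.36, beside KLF4 and KLF6, NR4A2 (1.45, SE 0.07) and ATF3 in cortex beside EGR4, BTG2 (1.61, SE 0.10) and MYC in thymus beside EGR2, and ZFP36 in pancreas.

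A second probe set was at hand for 47 genes. Of their 98 further probe sets, 67 had the same highest tissue as the one used. In 22 genes all of them did, and in 13 genes none did. Among the 22 genes with a difference of at least 1, 15 had 32 further probe sets, of which 28 had the same highest tissue and 19 also a difference of at least 1 there. All 6 further sets of IKZF1 were higher in thymus, by 1.11 (SE 0.10) to 4.66 (SE 0.15), and the second set of IKZF2 by 3.28 (SE 0.12). One further set of ETS1 gave 3.46 (SE 0.11) in thymus and the other 0.02 (SE 0.08). For SOX2, one further set gave 2.70 in cortex (SE 0.11, adjusted p = 2.13e-19), more than the 1.13 of the set with the highest mean, and the second set of SOX5 gave 1.76 (SE 0.11, adjusted p = 3.71e-15) in place of 0.40.

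Choosing the probe set with the highest mean also hid tissue differences. RUNX2, the factor of bone formation, was called in pancreas by 0.48 (SE 0.07), and a further set was at 9.24 in fibroblast and 7.16 in thymus, a difference of 2.08 (SE 0.14, adjusted p = 6.17e-14). GATA2, a factor of blood stem cells, was not called, and a further set was higher in fibroblast by 1.42 (SE 0.09, adjusted p = 4.38e-15). SOX10, which defines oligodendrocytes and neural crest, was called in pancreas by 0.49 (SE 0.07), and its second set was higher in cortex by 0.99 (SE 0.08, adjusted p = 2.57e-12). One of 3 further sets of KLF11 was higher in cortex by 1.61 (SE 0.07), where the set used was lowest, and both others were higher in testis. The second set of EGR2 was highest in pancreas, 0.13 above thymus (SE 0.07), without a call (adjusted p = 0.244). That of KLF2 was higher in pancreas by 0.25 (SE 0.07) in place of testis.

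**Figure D4:**
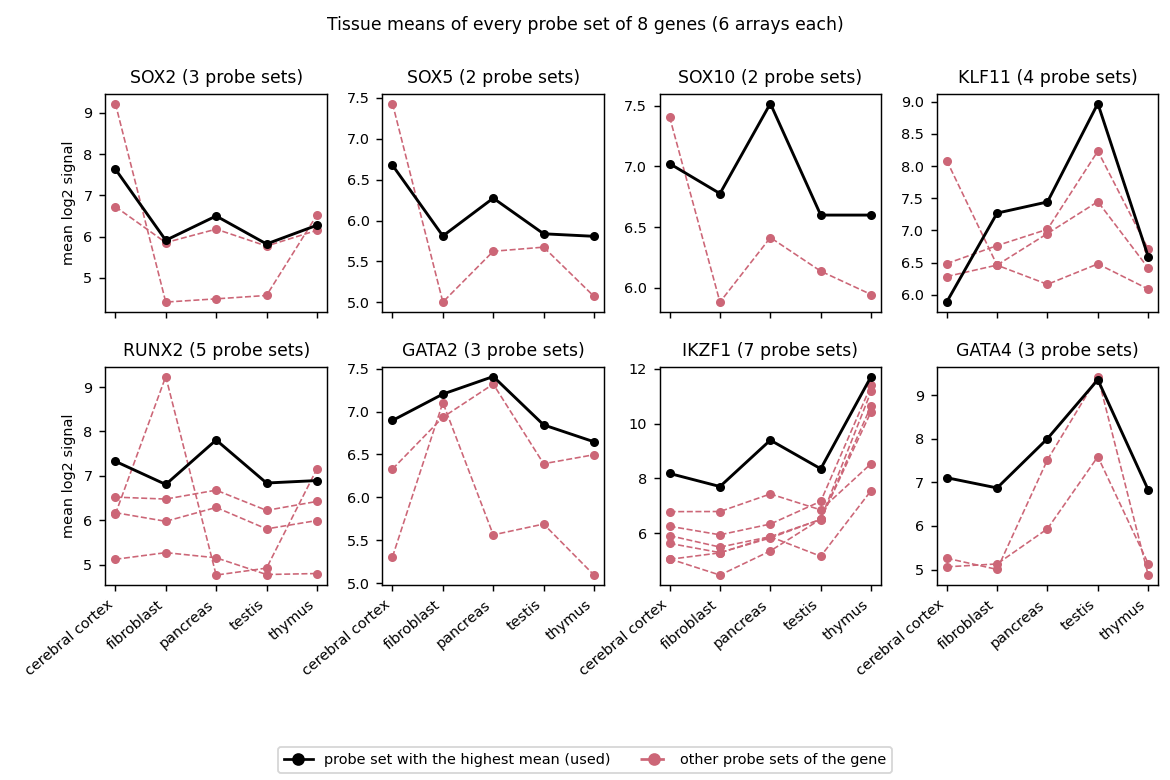
Mean log2 signal of 6 arrays (y axis) in 5 tissues (x axis) for every probe set of 8 genes, black for the probe set used and red dashes for the others; lines join the tissues of 1 probe set and are not a trend. In the RUNX2 panel 1 other set stands at 9.24 in fibroblast, and in the GATA4 panel all 3 sets are highest in testis.

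The 3 centers mostly gave the same order. The highest tissue was the same at all 3 for 64 of the 82 genes (78.0%, against 77% of all genes). For all 22 genes with a difference of at least 1, both arrays of that tissue lay above all others at each center. These 22 were chosen by their difference over the same arrays, so their agreement is not an independent check. The size of the differences was less stable. A tissue by center interaction was called for 28 genes (34.1%, background 33.4%) and for 13 of the 22. The background is that of all genes, and no share was computed for all genes with a difference of at least 1. FOXA2 differed between pancreas and the next tissue by 2.99 at Oregon, 1.80 at Nebraska and 2.27 at Yerkes (interaction adjusted p = 1.45e-05), and SOX2 between cortex and the next tissue by 1.51, 0.70 and 1.19 (0.00442). ETS1 and KLF13 varied little, with 1.93, 2.17 and 2.08 and with 1.71, 1.66 and 1.79. Among genes with an interaction, FOXP2, RUNX1, SOX4 and SOX30 changed their highest tissue between centers. SOX4 was higher in testis than in thymus by 0.39 at Oregon and 0.23 at Yerkes, and thymus was higher than testis by this measure at Nebraska (-0.21).

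**Figure D5:**
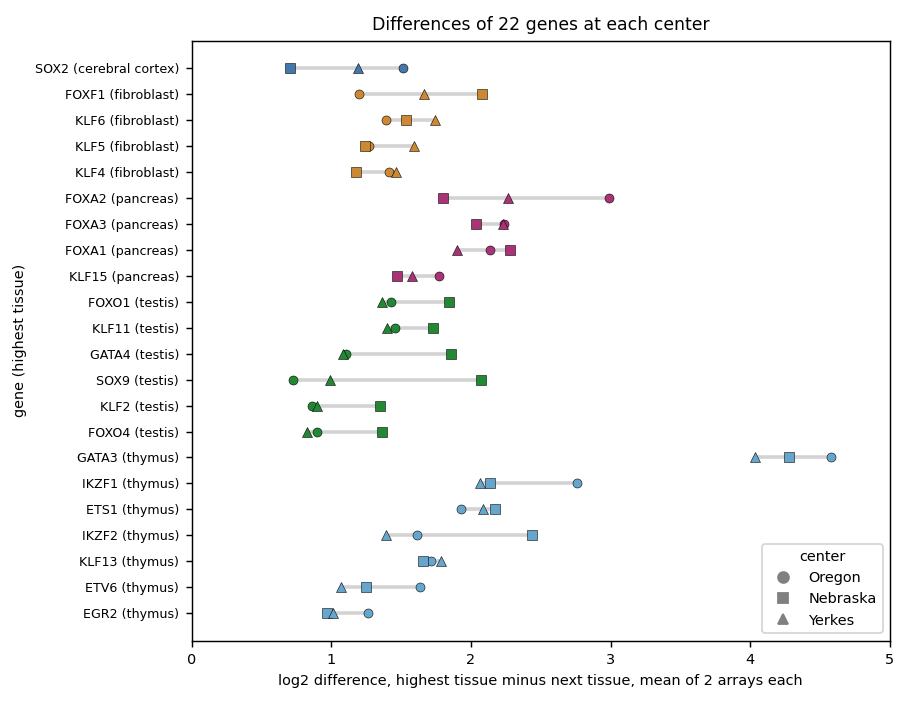
Log2 difference between the highest tissue and the next (x axis, means of 2 arrays) at each of 3 centers for the 22 genes with a difference of at least 1 (y axis). All points lie above 0, the ETS1 points within 1.93 to 2.17 and the SOX9 points from 0.73 at Oregon to 2.07 at Nebraska.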

How the data were processed

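Total RNA of 5 rhesus macaque sources was labeled and hybridized to the rhesus GeneChip as 2 aliquots at each of 3 centers (30 arrays). The authors deposited log2 signals: per the methods, probe intensities were background corrected with MAS 5.0, quantile normalized within each center, and summarized over all arrays by RMA. These steps were not repeated. Normalization within centers leaves a center offset, and shifts of a tissue's whole array stay possible. The number of arrays limits the precision.

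Probe sets were named by the platform annotation: 24969 had 1 symbol, 361 had several, and 27535 had none. Of the 82 genes, 80 had a gene ID in the RefSeq table, all with the same symbol. The members and all gene lists were chosen with earlier results of these data known.

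Values were fitted with limma 3.58.1 (R 4.3.3) with tissue and center as terms (23 residual degrees of freedom). A tissue was called higher, or lower, when all 4 of its contrasts had that sign and the largest of their 2-sided p-values, Benjamini-Hochberg adjusted over 52865 probe sets, was under 0.05. The stricter call also asked for a log2 difference of at least 1. A tissue by center interaction was tested with a moderated F of 8 terms. Shares of all genes refer to 14133 genes, 1 probe set each by the same rule. No filter on low signals was used. The fit was checked on simulated data.

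Genes named first were those higher or lower by at least 1, then the widest range of each family, changes of the highest tissue between centers and disagreeing probe sets; FOXN1, FOXP3, RUNX3 and other members were named for their known tissue. Alternatives were no center term, trended and robust moderation, other scalings, a filter to the upper part of mean signal, other probe set rules, aliquots averaged or blocked, each center left out, and no pancreas arrays. The testis array of Nebraska aliquot 1 was left out as an alternative chosen after seeing the data.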

Additional observations from a re-analysis of the deposited data

Results flagged for a closer look

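On the testis array of the first Nebraska aliquot, SOX9 stood at 9.9581, GATA4 at 10.0474 and KLF2 at 8.8877, each with a gap to the nearest of the 5 other testis arrays, after removal of the center means, that was large for the range of the group. The other testis arrays were at 7.98 to 9.03 for SOX9, 8.94 to 9.51 for GATA4 and 7.82 to 8.55 for KLF2. These were 3 of 31 groups looked at, and about 1 in 20 groups shows such a gap by chance; the 3 values come from the same array and are not independent. The cause was not tested.

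Differences between centers were larger than 1 for FOXA2 and IKZF2, together with a tissue by center interaction. At Oregon, pancreas minus fibroblast for FOXA2 came to 2.9875, against 2.27 on the Yerkes and 1.80 on the Nebraska arrays (limma interaction, adjusted p = 1.45e-05). At Nebraska, thymus minus pancreas for IKZF2 came to 2.4388, against 1.61 on the Oregon and 1.39 on the Yerkes arrays (limma interaction, adjusted p = 0.00304). The same RNA was used at all 3 centers, and the cause was not tested.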

How the results depend on the processing

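For the 22 genes with a difference of at least 1, 301 differences were computed under 14 alternatives, and all kept their direction and passed the test. The genes were chosen on the same arrays, so this is not an independent check. After quantile normalization of all arrays together 16 of the 22 also kept a difference of at least 1. Among the 69 differences followed, those that kept their direction and no longer passed numbered 30 without a center term, 8 with averaged aliquots (ETV4, FOXN1, FOXN2, FOXO6, FOXP4, KLF7, KLF17 and SOX12), 7 each with centered arrays, without Oregon and without Nebraska, 5 after quantile normalization of all arrays, 4 with the mean of all probe sets and 2 without Yerkes. Directions turned for FOXP4 (-0.0193) and KLF3 (-0.0174) under that normalization and, with the mean of all probe sets of a gene, for FOXP4 (-0.2828), RUNX2 (-0.6143) and SOX10 (-0.2495). Shares of all genes were computed for the main fit only. Counts that moved by more than 1.5 times were the following. Without a center term 3 genes were called in cortex, 4 in pancreas and 7 in testis, and with the brighter probe sets alone 3 in cortex and 14 in pancreas. Quantile normalization of all arrays gave 2 genes higher in testis by at least 1, and 2 lower in cortex and 2 in pancreas; centering on array medians also gave 2 lower in pancreas. The mean of all probe sets gave 2 genes higher by at least 1 in cortex, 2 in fibroblast and 0 lower in pancreas. Leaving out Oregon left 0 genes higher by at least 1 in cortex. Leaving out Nebraska left 3 in testis and 1 lower in cortex, and leaving out Yerkes gave 2 lower in pancreas. Without the pancreas arrays 14 genes were called in cortex, and 2, 1 and 1 were lower by at least 1 in cortex, testis and thymus. Without the first Nebraska aliquot of testis 3 genes were higher by at least 1 in testis and 1 lower in cortex. With a minimum of 2 in place of 1, the count was 3 in thymus and 0 each in testis, fibroblast and cortex.

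Correlations of same-numbered arrays lay near 0 at Oregon (-0.059 to 0.022) and Nebraska (-0.055 to 0.093), so aliquot numbers showed no pairing there. At Yerkes they ran from -0.30 to 0.35 with a median of 0.001, which leaves a pairing at that center unsettled. With the replicate block (center by aliquot number) all 69 differences kept their call, 22 genes were called in pancreas and 11 in thymus.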
